A study of Homo sapiens with 12 samples.

Results

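Ovarian carcinoma is recognised by a small set of genes that the tumour keeps from its Müllerian epithelium of origin, together with cell-surface and secreted proteins used as serum markers or drug targets. Here 10 such lineage markers were followed: the transcription factors PAX8, SOX17, WT1 and MECOM and the surface or secreted antigens MUC16, MUC1, MSLN, FOLR1, WFDC2 and CD24. They were taken by gene symbol from the deposited table of normalized reads, which lists 28035 genes. Of the 10, 9 had a row of their own and all 9 were tested, as were 15990 genes in all whose normalized reads averaged 10 or more. The expression of CD24 was not analysed here, since no row carries its symbol.

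The cells were OVCAR-3, an established line from a human ovarian adenocarcinoma, labelled as epithelial and of wild-type (wt) genotype. Messenger RNA was sequenced after 6 hours in 4 groups with 3 libraries each: the DMSO vehicle, FC-A (Fusicoccin A), IFNα (interferon alpha), and both agents together, called the Combination. Fusicoccin A is a fungal diterpene glycoside that stabilises complexes between 14-3-3 proteins and their phosphorylated partners, and the title of the study asks about cell death under both agents. The sources used here give no doses. All groups share 1 cell line, and nothing in the labels says that replicates are separate cultures, so the p-values measure the spread between these libraries, which may be technical. As the libraries are from bulk cells, fewer cells of a type and less RNA per cell cannot be told apart.

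PAX8 is a paired-box factor of the Müllerian duct and the kidney, SOX17 is an HMG-box factor that works beside it in ovarian carcinoma, WT1 is a zinc-finger factor that marks serous tumours, and MECOM is a zinc-finger factor often amplified in them. MUC16 carries the CA125 epitope, MUC1 is a membrane mucin of glandular epithelia, MSLN (mesothelin) binds MUC16, FOLR1 is the folate receptor alpha, and WFDC2 is the secreted protein measured as HE4. Interferon alpha acts through a receptor whose signal reaches the interferon-stimulated response element (ISRE) in the promoters of antiviral genes.

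Each library held between 31.2 and 39.5 M reads (M, 1e6), recovered from the deposited values. Normalized reads summed to between 31.7 and 32.7 M in the libraries without IFNα and to between 36.3 and 37.6 M in those with it. The interferon-response genes IFIT1, MX1 and OAS1 rose in both groups given IFNα, by log2 fold changes of 8.62, 7.63 and 6.45 in the IFNα group (limma's adjusted p = 8.64e-16, 1.96e-16 and 1.53e-14). The epithelial adhesion gene EPCAM stood at 8917 ± 64.7 normalized reads (SD, n = 3) in DMSO, while of 6 stromal markers DCN, LUM and TCF21 were at 0 in all 3 DMSO libraries. The 6 summed to between 854 and 918 normalized reads in DMSO and between 1419.6 and 1932 in IFNα, mostly from the collagen gene COL1A1. COL1A1 was 2.04-fold higher with IFNα (limma's adjusted p = 8.97e-06) and COL1A2 1.76-fold lower (0.00441). KRT5, a basal keratin that also marks mesothelium, was abundant, at 34521 ± 1153 normalized reads (SD, n = 3).

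In DMSO the markers ranked in the following order by normalized reads per kilobase of the longest protein-coding transcript (GENCODE release 29), the scale on which genes can be compared. PAX8 stood highest, at 4265 ± 68.5 per kilobase, above 96.8% of 13350 genes with a known length. WFDC2 followed at 2145 ± 124, MSLN at 1542 ± 60.4 and SOX17 at 734 ± 47.8 (each SD, n = 3). MUC16, whose transcript is 43.8 kilobases long in that annotation, reached 329.7 ± 43.1 per kilobase. Below it came WT1 at 235 ± 14.1, MUC1 at 212 ± 25.3, FOLR1 at 101 ± 3.43 and MECOM at 58.6 ± 5.15. The libraries of WT1 (225 to 252) and of MUC1 (186 to 236) overlapped, so these neighbours did not differ beyond their spread, whereas every other pair of neighbours was separated. The isoforms in use were not measured, which limits the scale, and reads from the repeats of the 2 mucins may map less well.

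Promoter sequence was set beside the expression values because IFNα moved some markers and acts through a known DNA element. RefSeq windows of 250 bases upstream of the annotated start (GRCh38.p14) were matched by symbol for 7 of the markers, in 16 windows, 3 of them of CD24; those of SOX17, MSLN and FOLR1 were not matched. The windows of the 3 markers that were higher in the Combination than in DMSO, and that of IFIT1 for comparison, are shown 5′ to 3′ along the gene, and capitals mark the letters of an ISRE match.
PAX8, chr2:113278922-113279171 (minus strand): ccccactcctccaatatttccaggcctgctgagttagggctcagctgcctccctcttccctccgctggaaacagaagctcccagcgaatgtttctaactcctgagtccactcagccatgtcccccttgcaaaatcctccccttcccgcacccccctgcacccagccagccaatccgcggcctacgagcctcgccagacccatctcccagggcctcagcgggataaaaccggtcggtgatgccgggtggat
WFDC2, chr20:45469503-45469752 (plus strand): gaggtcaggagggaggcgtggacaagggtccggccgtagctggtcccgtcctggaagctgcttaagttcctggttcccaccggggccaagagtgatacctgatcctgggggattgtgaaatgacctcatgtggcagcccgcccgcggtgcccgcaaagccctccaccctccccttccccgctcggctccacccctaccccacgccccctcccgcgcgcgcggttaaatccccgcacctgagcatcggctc
MUC1, chr1:155192916-155193165 (minus strand): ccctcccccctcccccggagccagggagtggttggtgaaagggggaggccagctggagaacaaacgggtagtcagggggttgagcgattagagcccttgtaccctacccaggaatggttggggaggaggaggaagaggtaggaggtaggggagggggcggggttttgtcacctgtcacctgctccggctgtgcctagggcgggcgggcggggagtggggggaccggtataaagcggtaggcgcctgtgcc
IFIT1, chr10:89392373-89392622 (plus strand): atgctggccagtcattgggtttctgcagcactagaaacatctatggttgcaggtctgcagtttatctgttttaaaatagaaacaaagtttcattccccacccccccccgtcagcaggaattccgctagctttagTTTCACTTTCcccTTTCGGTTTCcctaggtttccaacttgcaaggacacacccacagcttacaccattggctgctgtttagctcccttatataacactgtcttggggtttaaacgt
The ISRE searched was GAAA, any 2 bases and GAAA again, on both strands. It occurs in 3.02% of 35116 promoter windows, in 0 of the 16 marker windows and in 4 of 7 windows of interferon-response genes. With 16 windows, 0 is near the share of all windows and does not set the markers apart. The 4 windows belong to 4 of the 5 interferon-response genes that have a window. Among them is IFIT1 with 2 matches, 116 to 107 and 103 to 94 bases upstream. The letters of the gamma-activated site, TTCNNNGAA, occur in 6.57% of all windows and in 1 marker window, that of MECOM, 231 to 223 bases upstream. Those of an AP-1 site, TGANTCA, also occur in 6.57% of all windows, and in 1 window each of WT1 (60 to 54 bases upstream) and MUC16 (136 to 130). A match describes these letters in this window and is not a measurement of binding.

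**Figure D1:**
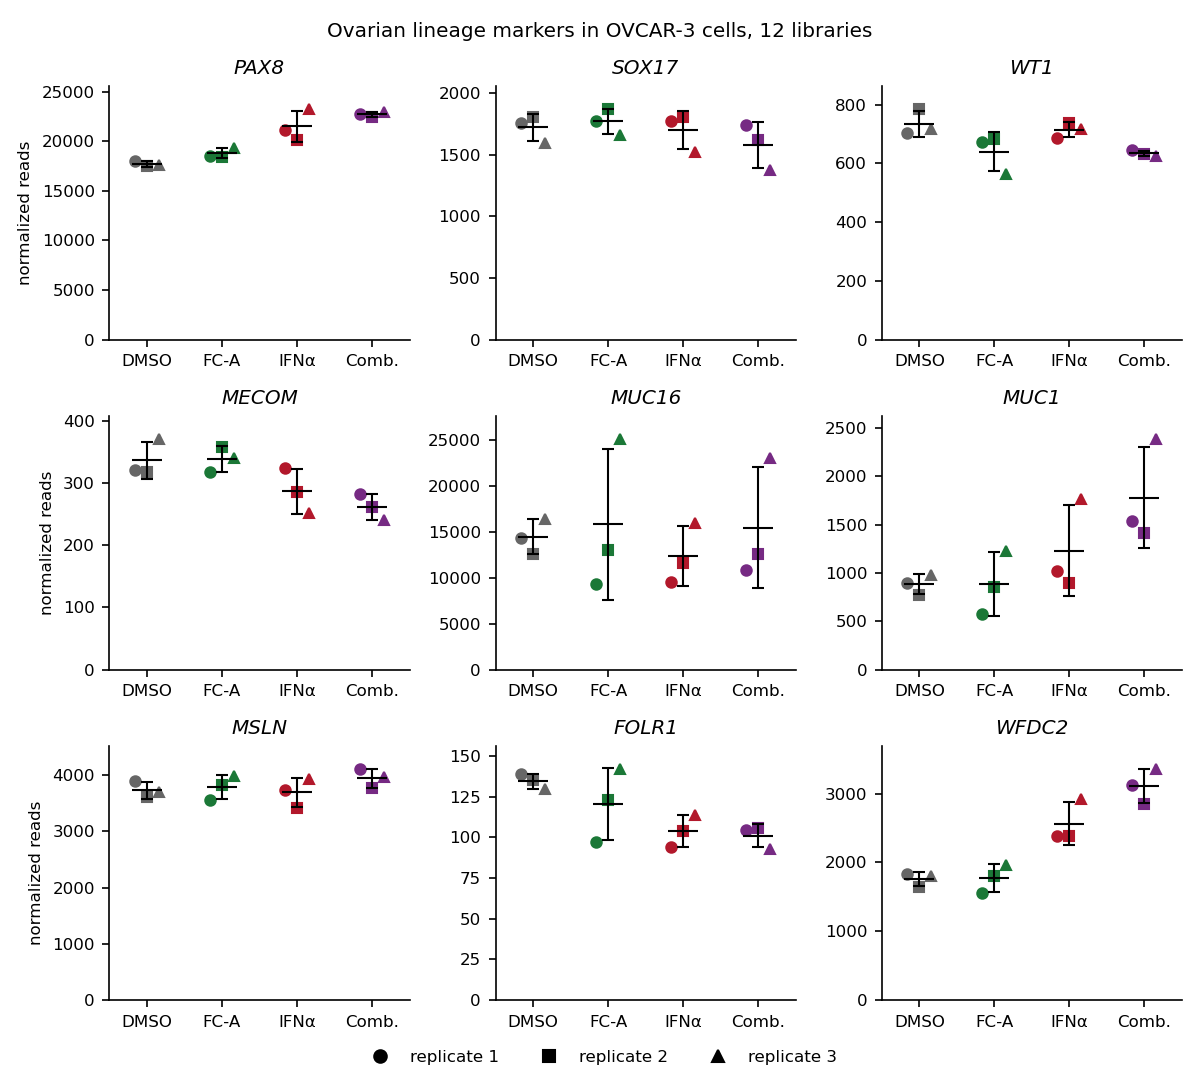
Normalized reads (y axis, from 0) of the 9 markers in each of the 12 libraries, by group (x axis: DMSO, FC-A, IFNα and Combination); symbols mark replicate numbers, lines and bars give the mean and SD of 3 libraries. PAX8 and WFDC2 are higher in every library with IFNα than in every library without it, and replicate 3 is the highest library for MUC16 and MUC1 in each of the 4 groups.

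Among the transcription factors, PAX8 rose in both groups given IFNα. In DMSO it stood at 18030.0, 17489 and 17608 normalized reads in replicates 1, 2 and 3, and in FC-A at 18535, 18446 and 19360.2. With IFNα it reached 21149.5, 20139.5 and 23234, and in the Combination 22774, 22395 and 22935. All 6 libraries with IFNα lay above all 6 without it. The means were 17709 ± 284 in DMSO and 21508 ± 1578 in IFNα (SD, n = 3), a 1.21-fold rise (95% interval 1.12 to 1.31) with limma's adjusted p = 0.000547. In the Combination the mean was 22701 ± 277 (SD, n = 3), 1.28-fold above DMSO (1.19 to 1.39, limma's adjusted p = 5.49e-05). These values depend on the scaling, because under quantile normalization PAX8 was only 0.02 (adjusted p = 0.816 by limma) and 0.11 (adjusted p = 0.170) above DMSO on the log2 scale, where the median of all genes moved to -0.10 and -0.11. Relative to that median, PAX8 stood 0.12 and 0.22 higher. PAX8-AS1, which overlaps PAX8, was listed at 3.63 to 9.53 normalized reads in DMSO, and the sources used here do not say whether counting used strand.

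SOX17 did not pass the test in any comparison. It stood at 1759.6, 1806 and 1593 normalized reads in DMSO, 1775, 1869 and 1661 in FC-A, 1773, 1806 and 1519 in IFNα and 1741, 1616 and 1374 in the Combination. The third library was the lowest of its group in all 4 groups, and the groups overlapped. The log2 fold change of the Combination against DMSO was -0.13, with a 95% interval of -0.32 to 0.06, and limma's adjusted p was 0.250. It passed, as lower, under quantile normalization (-0.26, limma's adjusted p = 0.0192) and with a term for replicate 3 (-0.13, adjusted p = 0.0327).

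WT1 was lower in the Combination than in DMSO. It stood at 703, 785 and 717 normalized reads in DMSO, at 673, 685 and 563 in FC-A, at 688, 739 and 719 in IFNα and at 645, 634 and 627 in the Combination. Each FC-A and each Combination library lay below each DMSO library, while IFNα overlapped DMSO. WT1 fell by 0.21 on the log2 scale in the Combination (SE 0.08, limma's adjusted p = 0.0372). The call was lost when any 1 of the 3 Combination libraries or DMSO replicate 2 or 3 was left out (adjusted p up to 0.153 by limma, without DMSO replicate 2). In FC-A the log2 fold change was nearly as large, -0.20, but with limma's adjusted p = 0.449 it did not pass. The antisense gene WT1-AS, which overlaps WT1, was listed at 110.02 to 129 normalized reads in DMSO and at 126 to 158 in the Combination. These ranges overlap, and WT1-AS did not pass in that comparison.

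MECOM was lower in the Combination too. It stood at 320.2, 318 and 369.9 normalized reads in DMSO, at 317, 357 and 340.3 in FC-A, at 323, 286 and 251 in IFNα and at 283, 262 and 240.2 in the Combination. The Combination libraries lay below all libraries of DMSO and FC-A, and IFNα replicate 1 lay within the range of DMSO. The Combination was 1.28-fold lower than DMSO (log2 -0.36, SE 0.11, limma's adjusted p = 0.0121). The change was not called without DMSO replicate 3 (adjusted p = 0.0635 by limma) or Combination replicate 3 (0.0505), nor without replicate 3 of every group (0.0908). With IFNα alone the log2 fold change was -0.23 (limma's adjusted p = 0.0866), and -0.32 without IFNα replicate 1 (adjusted p = 0.0333 by limma).

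Among the antigens, WFDC2 rose in both groups given IFNα. It stood at 1827, 1638 and 1798 normalized reads in DMSO and at 1560.1, 1798 and 1970.0 in FC-A. It reached 2383, 2387 and 2929 in IFNα and 3132, 2855 and 3353 in the Combination. Every library with IFNα exceeded every library without it, and IFNα replicate 3 overlapped the Combination. The mean rose from 1754 ± 102 in DMSO to 2566 ± 314 in IFNα (SD, n = 3), which is 1.46-fold (95% interval 1.27 to 1.68, limma's adjusted p = 0.000331). In the Combination it was 3113 ± 249 (SD, n = 3), 1.77-fold above DMSO (1.54 to 2.04, limma's adjusted p = 6.35e-06). Against IFNα alone the Combination was 1.22-fold higher (1.06 to 1.40), which did not pass (limma's adjusted p = 0.247). It passed without IFNα replicate 3 (log2 0.38, adjusted p = 0.0403 by limma) and without replicate 3 of every group (log2 0.33, adjusted p = 0.0148).

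MUC1 was higher in the Combination, with a wide spread. It stood at 898, 775 and 985 normalized reads in DMSO and 574, 858 and 1231 in FC-A. In IFNα it reached 1019, 901 and 1769.8, and in the Combination 1539, 1419 and 2383. The Combination libraries lay above all libraries of DMSO and FC-A, and the third library was the highest in each group. The mean of 1780.2 ± 526 in the Combination was above the 886 ± 106 of DMSO (SD, n = 3), a fold of 1.96 (95% interval 1.31 to 2.96, limma's adjusted p = 0.00940). With IFNα alone the fold was 1.33 (0.886 to 2.01), with adjusted p = 0.234 by limma and 0.00916 with a term for replicate 3. Against IFNα the Combination was 1.47-fold higher (0.979 to 2.22, limma's adjusted p = 0.401), and without replicate 3 of every group the log2 fold change was 0.62, with adjusted p = 0.0125 by limma. THBS3 and TRIM46, which lie within 10 kilobases of MUC1, did not pass in either comparison with DMSO, and both were higher in replicate 3 (1.23-fold and 1.26-fold, limma's adjusted p = 0.00208 and 0.0133).

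FOLR1, the least abundant antigen, was lower in both groups given IFNα. It stood at 139, 135 and 129.7 normalized reads in DMSO, at 97.1, 123 and 142 in FC-A, at 93.8, 104 and 113 in IFNα and at 104, 105 and 92.9 in the Combination. The IFNα and Combination libraries lay below all DMSO libraries, and those of FC-A overlapped every group. FOLR1 fell by 0.38 on the log2 scale with IFNα (SE 0.14, limma's adjusted p = 0.0400) and by 0.41 in the Combination (SE 0.14, limma's adjusted p = 0.0253). The IFNα call was lost without any 1 of the 3 DMSO libraries, without FC-A replicate 2, and without IFNα replicate 1 or 2 (adjusted p 0.0516 to 0.140 by limma). The Combination call was lost without DMSO replicate 1 (0.0743) or 2 (0.0621) or Combination replicate 3 (0.0839), and without replicate 3 of every group (0.0650). In the authors' deposited table the adjusted p of FOLR1 was 0.0721 for IFNα and 0.0529 for the Combination.

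MUC16 and MSLN did not pass in any comparison. MUC16 stood at 14352, 12603 and 16377 normalized reads in DMSO, 9331, 13020.5 and 25040.4 in FC-A, 9582, 11562 and 15914 in IFNα and 10852, 12538 and 22961 in the Combination. Libraries of 1 group differed by more than the groups did, and the 95% interval of its fold against DMSO ran from 0.525 to 1.35 with IFNα and from 0.636 to 1.63 in the Combination. Without replicate 3 of every group, MUC16 passed as lower with IFNα (log2 -0.35, limma's adjusted p = 0.0232). MSLN stood at 3889, 3604 and 3692 normalized reads in DMSO, 3560.4, 3820.5 and 3985 in FC-A, 3736, 3417 and 3932 in IFNα and 4100.3, 3767 and 3974 in the Combination. These values overlapped throughout, and the 95% interval of its fold against DMSO was 0.904 to 1.08 with IFNα and 0.967 to 1.16 in the Combination. Under quantile normalization MSLN passed as lower with IFNα (-0.21, limma's adjusted p = 0.0205), 0.11 below the shifted median of all genes.

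The row CD24P4, a near-identical copy of CD24, was listed at 7602, 7376 and 8028 normalized reads in DMSO and at 7162, 7901 and 8513 in FC-A. It stood at 6293, 6243 and 6339 in IFNα and at 6511, 6088 and 6656 in the Combination. Every library with IFNα lay below every library without it, and the fall from DMSO was 0.28 on the log2 scale with IFNα (SE 0.06, limma's adjusted p = 0.00143) and 0.26 in the Combination (SE 0.06, limma's adjusted p = 0.00280). Which copy the reads came from is uncertain, so the row gives no value for CD24.

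**Figure D2:**
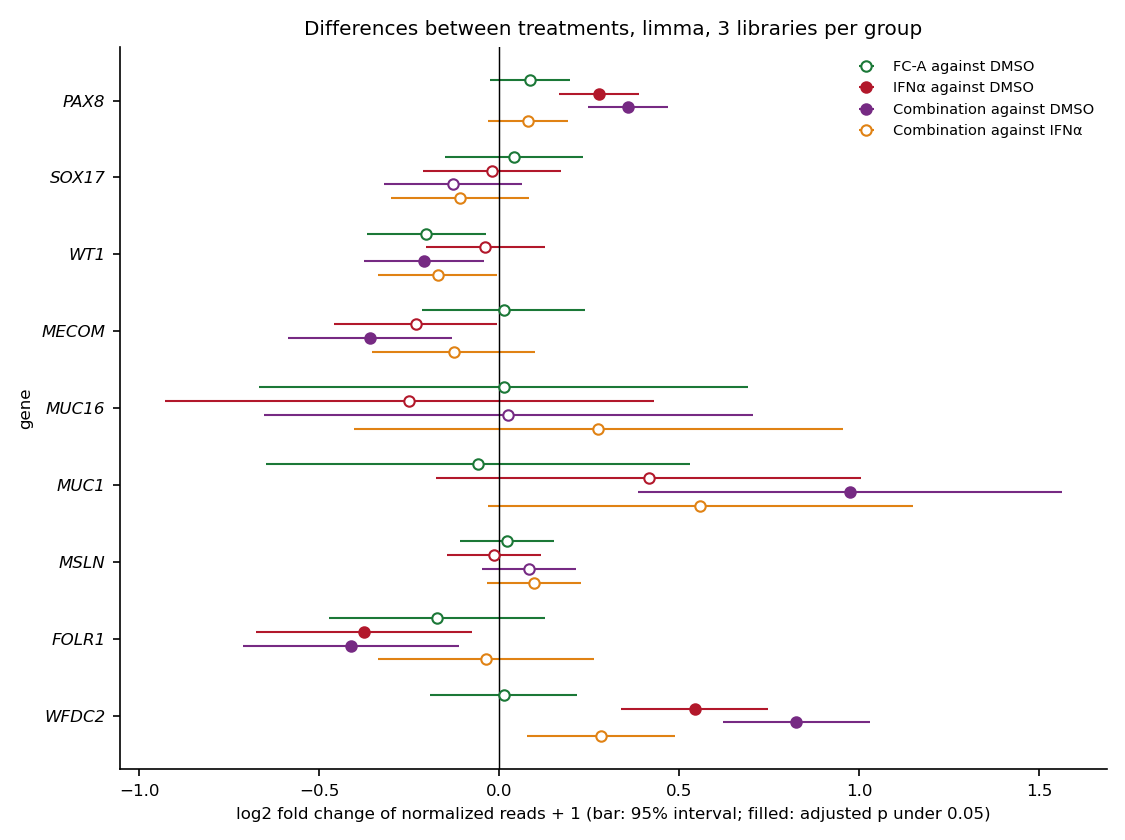
Log2 fold change (x axis, of normalized reads + 1) of each marker (y axis) in 4 comparisons, with 95% intervals from limma; filled symbols passed adjusted p 0.05 over 15990 genes. WFDC2, PAX8 and FOLR1 are filled for both IFNα and the Combination against DMSO, MUC1, MECOM and WT1 for the Combination alone, and none for FC-A against DMSO or the Combination against IFNα.

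FC-A alone changed none of the 9 markers past the threshold (limma, adjusted p 0.05; background 0.3% of all genes tested). At an unadjusted p under 0.05 there was 1, WT1, and edgeR and DESeq2 on the recovered reads called 0 each. The libraries of FC-A and DMSO did not overlap for 2 markers, PAX8 and WT1, against a background of 15.2%. The median absolute log2 fold change was 0.04 over the markers and 0.08 over all genes.

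IFNα alone changed 3 of 9 markers, with PAX8 and WFDC2 higher and FOLR1 lower, where 46.9% of all genes tested were called (25.4% higher, 21.5% lower). The libraries did not overlap for the same 3 markers, against a background of 58.2%. The share of markers called was not above that of all genes. Their median absolute log2 fold change was 0.25, and that of all genes was 0.25. Of all calls, 54.2% were higher, and 36.6% under quantile normalization. In the Combination against DMSO, 6 of 9 markers were called, 3 higher (WFDC2, PAX8, MUC1) and 3 lower (MECOM, FOLR1, WT1), against a background of 48.3% (26.1% higher, 22.2% lower). The libraries did not overlap for the same 6 (background 60.8%). The median absolute log2 fold change was 0.36 for the markers and 0.26 for all genes, and 53.9% of all calls were higher (35.9% under quantile normalization). Without Combination replicate 3, 3 markers were called. Both comparisons use the same DMSO libraries.

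Against FC-A, the Combination changed 4 of 9 markers, where 48.9% of all genes were called (26.6% higher, 22.3% lower) and the libraries of 53.9% did not overlap. MUC1 was 2.05-fold higher (95% interval 1.36 to 3.08, limma's adjusted p = 0.00643) and WFDC2 1.76-fold higher (1.52 to 2.02, adjusted p = 7.31e-06). PAX8 was 1.21-fold higher (1.12 to 1.31, limma's adjusted p = 0.000572) and MECOM was 1.29-fold lower (adjusted p = 0.00980). The PAX8 call was lost under quantile normalization (log2 0.02, limma's adjusted p = 0.783). FOLR1 passed as lower without FC-A replicate 1 (-0.38, limma's adjusted p = 0.0294) and SOX17 without Combination replicate 1 (-0.24, adjusted p = 0.0477).

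Adding FC-A to IFNα changed 0 of 9 markers by limma (background 0.331%), with 2 at an unadjusted p under 0.05, WFDC2 and WT1, and 0 by edgeR and by DESeq2. The libraries did not overlap for 1 marker, WT1 (background 16.4%). Without replicate 3 of every group 2 passed, MUC1 and WFDC2, and the same 2 passed with the replicate number as a block. The background rose in both settings. Of all genes tested, limma called 1187 without replicate 3 of every group and 1009 with the block, beside 53 in the main analysis. The share of 0.331% is therefore not the background for these 2 markers. The interaction, the effect of FC-A with IFNα minus that without it, called 0 of 9 markers and 0.0% of all genes by limma. No marker had an unadjusted p under 0.05, and edgeR and DESeq2 called 0 markers, while over all genes 627 had an unadjusted p under 0.05 and DESeq2 called 3. The largest estimate was that of MUC1, a log2 difference of 0.62 with a 95% interval of -0.22 to 1.45. That of PAX8 was -0.0041, within -0.16 to 0.15.

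**Figure D3:**
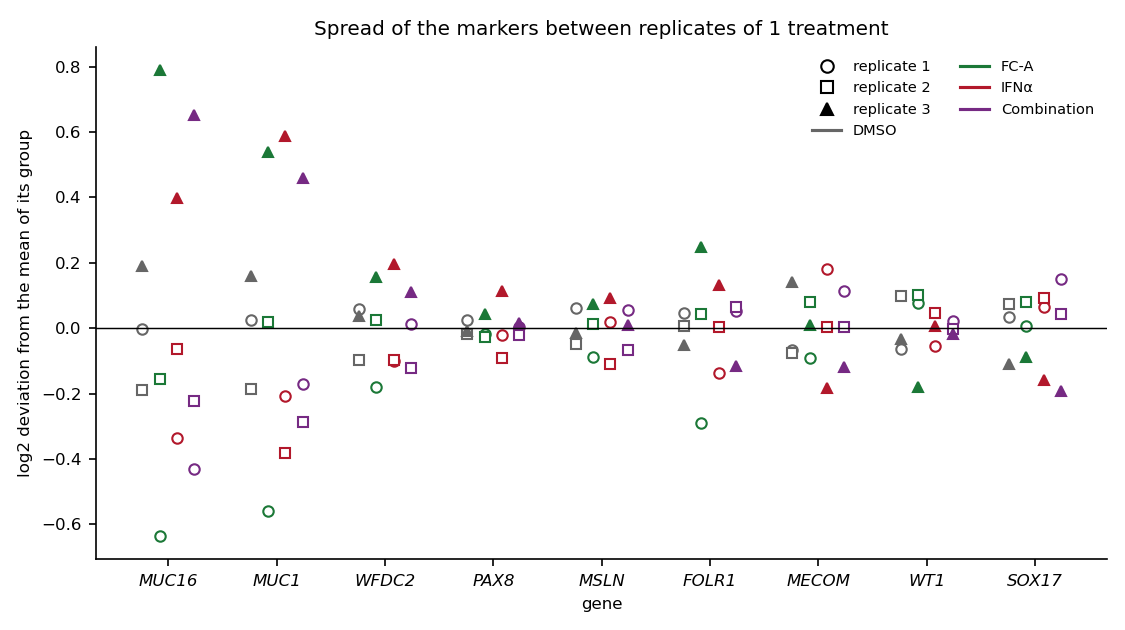
Deviation of each library from the mean of its own group on the log2 scale (y axis) for the 9 markers (x axis); colours mark groups and symbols replicate numbers. Replicate 3, drawn filled, is above its group mean in 4 of 4 groups for MUC16 and MUC1 and below it in 4 of 4 for SOX17.

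The spread within a group set the mucins apart from the other markers. The residual SD on the log2 scale was 0.51 for MUC16 and 0.44 for MUC1, above 99.8% and 99.6% of 12958 genes, whose median was 0.10 (0.0985). For PAX8 it was 0.06, lower than most genes. A term for replicate 3 against replicates 1 and 2, added with the data known, called 4 of 9 markers, where it called 22.3% of all genes (9.77% higher, 12.5% lower). MUC16 was 1.69-fold higher in replicate 3 (limma's adjusted p = 0.000154), MUC1 1.58-fold higher (0.000189) and WFDC2 1.14-fold higher (0.00759), while SOX17 was 1.15-fold lower (0.000917). Of 12 tested relatives of the markers, 3 were higher in replicate 3, 1 was lower and 8 were not called. The 3 were the mucins MUC5B, 1.76-fold (limma's adjusted p = 0.0342), MUC4, 1.41-fold (0.00292), and MUC20, 1.38-fold (0.000889). Of 6 epithelial markers, 4 were higher there too, among them KRT18 by 1.13-fold and KRT8 by 1.12-fold. Within groups, the deviations of MUC1 and WFDC2 had a Pearson r of 0.957 over 12 libraries, and those of MUC16 and MUC1 an r of 0.908. These are descriptions with no test, since the libraries of 1 number may share more than a number, and what set replicate 3 apart was not tested.

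Most alike to each marker over the 12 libraries, by Pearson r of log2 values among 13030 genes, were ERVK13-1 for PAX8 (r = 0.991), RASD1 for WFDC2 (0.990), WIPI1 for MUC1 (0.981) and CELSR1 for MUC16 (0.976). PSMA7 was nearest to SOX17 (0.957), THAP4 to WT1 (0.956), BTBD9 to FOLR1 (0.939), TMEM81 to MECOM (0.937) and EPS8L1 to MSLN (0.887). An r above 0.9 was shared with 1170 genes for PAX8 and 1240 for WFDC2, but with 2 for WT1 and 0 for MSLN. RASD1 went from 242 ± 27.7 normalized reads in DMSO to 532 ± 109 in IFNα and 699.8 ± 41.0 in the Combination (SD, n = 3). The 12 libraries share the 4 treatments and the replicate numbers, so these values are descriptions with no p.

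**Figure D4:**
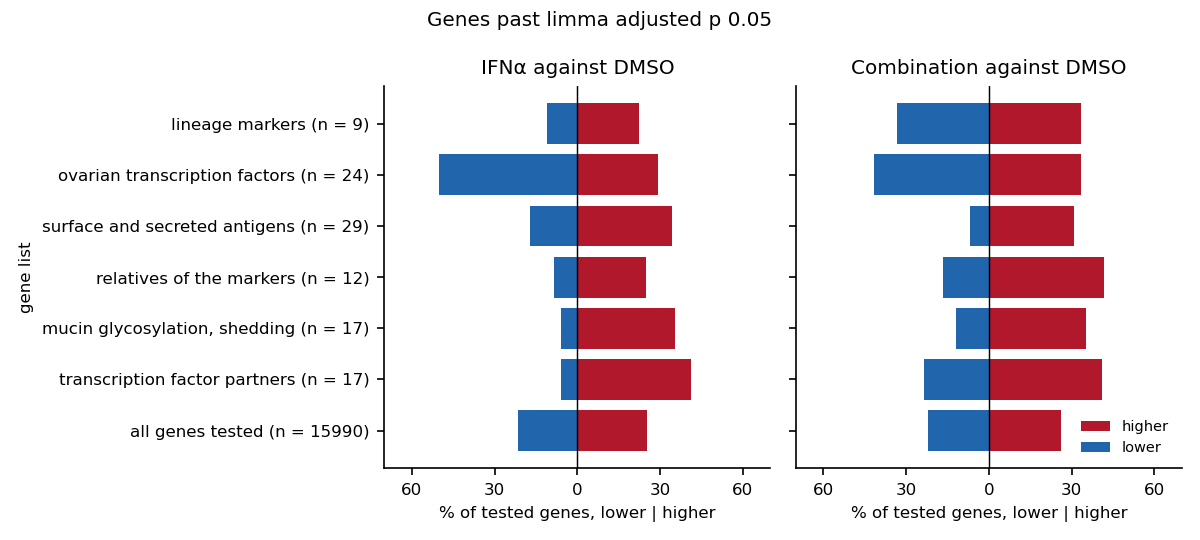
Share of tested genes (x axis, %) called higher (right) and lower (left) by limma at adjusted p 0.05 in IFNα and in the Combination against DMSO, for the lineage markers, 5 related lists and all genes tested (y axis, n genes tested). The ovarian transcription factors have the widest lower bar in both panels. The lists were chosen with earlier results of these data known.

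The wider programme around the markers was followed with lists of genes. Of 24 tested transcription factors of Müllerian and ovarian epithelium, 7 were higher and 12 lower with IFNα, and 8 higher and 10 lower in the Combination. Of all genes tested, 25.4% were higher and 21.5% lower with IFNα, and 26.1% and 22.2% in the Combination. The median log2 fold change was -0.34 with IFNα and -0.22 in the Combination against DMSO, beside -0.01 over all genes in each. In the Combination against FC-A it was -0.13. The list was chosen with earlier results of these data known, so these shares and medians are descriptions. GATA6, a zinc-finger factor, rose from 44.9 ± 6.30 to 98.3 ± 7.68 normalized reads (SD, n = 3), 2.17-fold (limma's adjusted p = 0.000479). ARID3A fell from 840.2 ± 61.1 to 404 ± 59.5 (limma's adjusted p = 2.51e-06). EHF, an epithelial ETS factor, fell from 1948 ± 324 to 974 ± 209 (0.00203). Neither was among the 3 called factors with the largest fold in the Combination against DMSO. EHF was also 1.43-fold higher in replicate 3 (limma's adjusted p = 0.000386). In the Combination HOXA7 was 2.003-fold lower (limma's adjusted p = 7.62e-07) and ZNF217 1.70-fold higher (9.48e-07).

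Of 29 other surface and secreted antigens of ovarian carcinoma, 10 were higher and 5 lower with IFNα, and 9 higher and 2 lower in the Combination. The share called was near the 46.9% of all genes with IFNα and below the 48.3% in the Combination. LGALS3BP, a secreted glycoprotein that binds galectin, rose from 23688 ± 187 to 60545 ± 2421 normalized reads with IFNα (SD, n = 3), 2.55-fold (limma's adjusted p = 9.70e-12). SLC34A2, the phosphate transporter NaPi2b, rose 2.02-fold (limma's adjusted p = 1.26e-09). OVGP1, oviduct glycoprotein, was 3.09-fold lower with IFNα but rests on 11.4 to 19.05 normalized reads in DMSO and 2.04 to 5.46 in IFNα, so it passed the filter through the groups where it is higher and is counted among the 5.

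Among 12 tested relatives of the markers, 3 were higher and 1 lower with IFNα, where 46.9% of all genes were called. The 3 include PAX5, whose place among the tested genes came from the groups in which it is high. MUC15, a membrane mucin, went from 238, 289.9 and 319 normalized reads in DMSO to 2990.3, 3012 and 3176 in IFNα, and stood at 3524, 3694 and 3722 in the Combination. That is 10.9-fold with IFNα and 12.97-fold in the Combination (limma's adjusted p = 1.03e-10 and 4.05e-11). MUC3A was 3.87-fold higher with IFNα (limma's adjusted p = 4.08e-06). PAX5, the paired-box relative of PAX8 known from B cells, stood at 4.53, 8.61 and 3.81 normalized reads in DMSO and 75.5, 81.9 and 67.6 in IFNα. MUC16 did not pass in any comparison, but its spread was wide, and the 95% interval of its fold with IFNα was 0.525 to 1.35. Without replicate 3 of every group it passed as lower with IFNα (log2 -0.35, limma's adjusted p = 0.0232).

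Enzymes that build or shed mucin glycans gave 6 higher and 1 lower of 17 with IFNα, and 6 and 2 in the Combination. These shares were not above the 46.9% and 48.3% of all genes called. C1GALT1, which makes the core 1 O-glycan, rose 2.13-fold with IFNα (limma's adjusted p = 1.88e-07), and ST3GAL1, a sialyltransferase acting on it, 1.63-fold (5.97e-05). ST6GALNAC2 was 1.48-fold lower (0.000327). Of 17 partners of PAX8, SOX17, WT1 and MECOM, 7 were higher and 1 lower with IFNα, and 7 and 4 in the Combination. The share called was near the 46.9% of all genes with IFNα and above the 48.3% in the Combination. SMAD3 rose 1.99-fold (limma's adjusted p = 5.07e-07) and WWTR1, the co-activator TAZ, 1.75-fold (4.42e-08) with IFNα. FC-A alone called 0 of the 127 list genes tested by limma (15 at an unadjusted p under 0.05, edgeR 0, DESeq2 5), and the Combination against IFNα also 0 (27, 0 and 2).

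Several lists mark other cell types that share these genes, as WT1, MSLN and MUC16 are also made by mesothelium. Of 5 tested mesothelial markers, 2 were higher and 3 lower with IFNα, where 25.4% of all genes tested were higher and 21.5% lower. The summed level of all 6 listed ran from 34031 to 36142 in DMSO and from 30348 to 31664 in IFNα, nearly all of it KRT5. CALB2, a calcium-binding protein of mesothelium, fell 2.08-fold with IFNα (limma's adjusted p = 0.00352), while LRRN4 rose 2.07-fold (6.55e-05) and DES 1.85-fold (0.0309). In the Combination 2 were higher, LRRN4 (2.02-fold) and DES (2.06-fold), and 1 was lower, UPK3B (1.23-fold, limma's adjusted p = 0.0127). CALB2 was not called there. Of all genes tested, 26.1% were higher and 22.2% lower in the Combination. Of 5 tested markers of ciliated tubal cells, 3 were lower with IFNα, where 21.5% of all genes tested were lower. Among the 3 was FOXJ1, 2.43-fold lower (limma's adjusted p = 0.000177). The 3 include TPPP3, which had 17.2 to 29.6 normalized reads in DMSO and 2.04 to 6.55 in IFNα and so passed the filter through the groups where it is higher. Their summed level was 2135 to 2424 in DMSO and 1073 to 1699 in IFNα, and none was at 0 in all libraries of a group. Their part in the results for the markers was not tested.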

How the data were processed

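Messenger RNA libraries from OVCAR-3 cells (TruSeq Stranded mRNA, per the labels) were aligned to hg19 with STAR 2.7.3 after bcl2fastq 2.20 and FastQC, and DESeq2 1.24.0 was used, per the submitters' processing notes. The read counter and annotation: not given in the sources used here. The deposited table holds a normalized signal per gene, by the authors. Dividing each library by 1 factor gave whole reads for 100% of values (within 0.01), so raw depth was recovered. The authors' tables also give log2 fold changes and adjusted p-values, which were used as deposited.

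Log2 of the normalized value + 1 was fitted with limma 3.58.1 (trend, 1 mean per group, all 12 libraries, two-sided, R 4.3.3), adjusted by Benjamini-Hochberg over 15990 genes with a mean of at least 10. In all 6 comparisons the threshold was an adjusted p of 0.05. edgeR 4.0.16 and DESeq2 1.42.0 on the recovered reads were alternatives. The fits were also run on simulated counts with the same dispersion for every gene and no replicate effect. That check does not cover the replicate 3 differences or the wide spread of the mucins. Lists and markers were chosen with earlier results of these data known, as was the term for replicate 3. From each of 14 lists, up to 3 called genes with the largest fold per comparison could be named, and 1 most alike gene per marker. Fold changes of log2(value + 1) understate changes of low genes. Intervals cover the spread between libraries. Some genes that the naming rule would give are not reported here.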

Additional observations from a re-analysis of the deposited data

How the results depend on the processing

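Of 1386 recomputed values of single markers, 1341 kept their side of the threshold, 20 passed anew, 25 no longer passed, and 0 calls changed direction. Among the 1341 were 58 uncalled values that changed sign. Leaving out each library in turn, the number of markers called ranged from 2 to 3 (IFNα), 3 to 6 (Combination against DMSO), 0 to 1 (Combination against IFNα) and 4 to 5 (Combination against FC-A), and stayed at 0 for FC-A and the interaction. With a minimum of 2-fold added, the markers called were 0 for IFNα, 0 for the Combination against DMSO and 1, MUC1, against FC-A. For the Combination against IFNα, 2 markers (MUC1 and WFDC2) passed without replicate 3 of every group and 2 with the term for replicate 3.

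Deviations of 18 same-number pairs correlated at 0.02 to 0.40, all above 0 and 10 above 0.1, and those of the 6 replicate 3 pairs at 0.19 to 0.40. The numbers were not used as a pairing in the main analysis, since not every pair was above 0.1, but a library matched its own number best in 25 of 36 cases. With the replicate number as a block, 2 markers passed in the Combination against IFNα, MUC1 (limma's adjusted p = 0.0152) and WFDC2 (0.0138). MUC1 also passed for IFNα (0.0113), and SOX17, as lower, for the Combination against DMSO (0.0410) and against FC-A (0.00937).

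Over all genes, the 48 calls for FC-A became 20 without the variance trend, 26 with only the compared groups, 289 with the replicate block, 134 without replicate 3, 336 with its term, 171 by DESeq2, 155 in the authors' deposited table, 3 at 2-fold, and 16 to 119 without 1 library. The 53 for the Combination against IFNα became 11, 10, 1009, 1187, 1110, 240, 231, 4 and 4 to 510 in the same order, and 41.5% higher calls became 27.9% under quantile normalization and 59.6% by DESeq2. At 2-fold, 1439 (IFNα), 1569 (Combination against DMSO) and 1573 (against FC-A) were left. The cause was not tested. Without the filter on low genes, FOLR1 (IFNα, limma's adjusted p = 0.0688) and WT1 (Combination against DMSO, 0.0531) no longer passed. FOLR1 and MECOM rest on about 100.9 and 262 normalized reads in the Combination.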
